A study of Mus musculus with 12 samples.

Results

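The response of wild-type (WT) mouse peritoneal macrophages to oxidized low-density lipoprotein (oxLDL) was described from 6 of the 12 RNA-seq libraries of the series, 3 given oxLDL at 20 µg/ml for 8 h and 3 kept in medium alone. The libraries were chosen by their titles and not by any measured value. All came from C57BL/6 mice of wild-type genotype, and all cells were cultured in RPMI1640 with 10% serum before treatment. The other 6 libraries came from CD36 knockout (KO) mice of the same strain under both media and entered the fit, where they helped to set the spread, and the last comparison. Whether replicates were separate animals or separate cultures is not stated, so p-values here reflect the scatter among these libraries alone, and that scatter may be technical. The purification of the macrophages is not stated either. In bulk RNA, fewer cells of a type and less RNA per cell cannot be told apart.

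Macrophages of the peritoneal cavity engulf particles and lipoproteins, and those that take up oxLDL can fill with cholesterol and become the foam cells of atherosclerotic lesions. OxLDL is bound by scavenger receptors, of which CD36 is one, and its oxidized lipids can also engage pattern recognition receptors. Cytokines, chemokines, interferon-stimulated genes, antioxidant enzymes and cholesterol genes are its best-known readouts. The results below concern mainly other genes: receptors and their signalling parts, the cytoskeleton, regulators of transcription, metabolic enzymes and genes of growth and genome upkeep.

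Summed counts were 39579947 to 44409108 in the WT control libraries and 40883239 to 65135955 under oxLDL. Replicates correlated across genes at r = 0.9935 to 0.9952 on the log2 scale, but WT oxLDL replicate 1 reached only 0.953 and 0.9521 with replicates 2 and 3. The defining macrophage markers Adgre1 (497 to 521 CPM in control, 1014 to 1468 with oxLDL) and Csf1r (890 to 907 and 1086 to 1128) were high in all 6 libraries, where CPM of markers is the count scaled to the library's sum alone, while gene values from the next paragraph on also use TMM factors. Of 10 macrophage markers 4 rose and 1, Gata6, fell in the fit, where 18.1% of all genes tested rose and 18.6% fell. Gata6, the regulator of large resident peritoneal macrophages, lay at 9.93 to 16.7 and 2.91 to 5.37 CPM, and Timd4, a receptor for dying cells on such macrophages, at 0.158 to 0.193 and 3.67 to 5.30. Markers of other cells moved as well, and the counts of their calls stand against the same shares of all genes. The 10 B cell markers summed to 97.9 to 123.3 CPM in control and 45.9 to 51.5 with oxLDL, mostly from Cd22 (79.5 to 82.2 and 28.5 to 32.5), and 1 of 10 tested fell. The 5 eosinophil markers summed to 18.5 to 19.9 and 2.96 to 3.73 CPM, nearly all from Siglecf, while Epx had no count in any of the 6 libraries. The 10 mesothelial and fibroblast markers, led by collagen genes, summed to 786 to 1368 and 474 to 807 CPM. The 2 of 10 that fell were Upk3b (log2 fold change -1.20) and Wt1 (-0.99). The collagen genes Col1a1 (-0.09), Col1a2 (-0.30) and Col3a1 (-0.99) did not pass the test, which uses TMM factors, unlike these sums. The 8 neutrophil markers summed to 48.8 to 51.7 and 42.3 to 55.6 CPM. Of the 5 tested, S100a8 (2.35 on the log2 scale) and Camp (6.51) rose, Mmp8 (-0.97) and Ltf (-1.95) fell, and S100a9 did not pass. Levels were low for Camp, at 0 to 0.0242 CPM in control and 0.9365 to 1.93 with oxLDL. Ltf lay at 0.404 to 0.725 and 0.0614 to 0.147 CPM, and S100a9, Ly6g and Elane were at or near 0. The 6 mast cell markers summed to 2.32 to 2.996 and 13.0 to 13.8 CPM, the gain being in Hdc. The 11 T and NK cell markers stayed at or under 5.65 CPM in sum (of 4 tested, 1 rose and 2 fell), the 6 dendritic cell markers at or under 7.44 (2 of 5 tested rose) and the 5 erythroid genes at or under 1.42. The part of other cells in the results below was not tested.

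A large share of the measured genes changed with oxLDL, in nearly equal numbers in each direction, and the largest changes were more often rises than falls. EdgeR's quasi-likelihood test called 5980 of 16281 genes (36.7%) at a Benjamini-Hochberg adjusted p under 0.05, 2946 higher (18.1%) and 3034 lower (18.6%). A log2 fold change of at least 1 was reached by 1575 higher and 1700 lower genes, of at least 2 by 721 and 440, and of at least 4 by 226 and 44. All 226 and 44 of the last class were also called without WT oxLDL replicate 1. Without that library the test called 8097 of 16636 genes (48.7%), 4043 higher (24.3%) and 4054 lower (24.4%). Of the genes called in the full data, 2837 were higher and 2899 lower in both fits, 109 higher and 135 lower calls were lost, and 0 were called opposite ways. Upper-quartile scaling, which put the median gene at -0.13 on the log2 scale against -0.01, gave 2265 higher and 3845 lower calls (37.1% of the calls higher, against 49.3%). The calls gained by leaving out WT oxLDL replicate 1 were 1188 higher genes with a median length of 4814 nt and 1118 lower genes with one of 2710 nt, and the 109 lost higher genes had a median of 1143 nt.

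**Figure D1:**
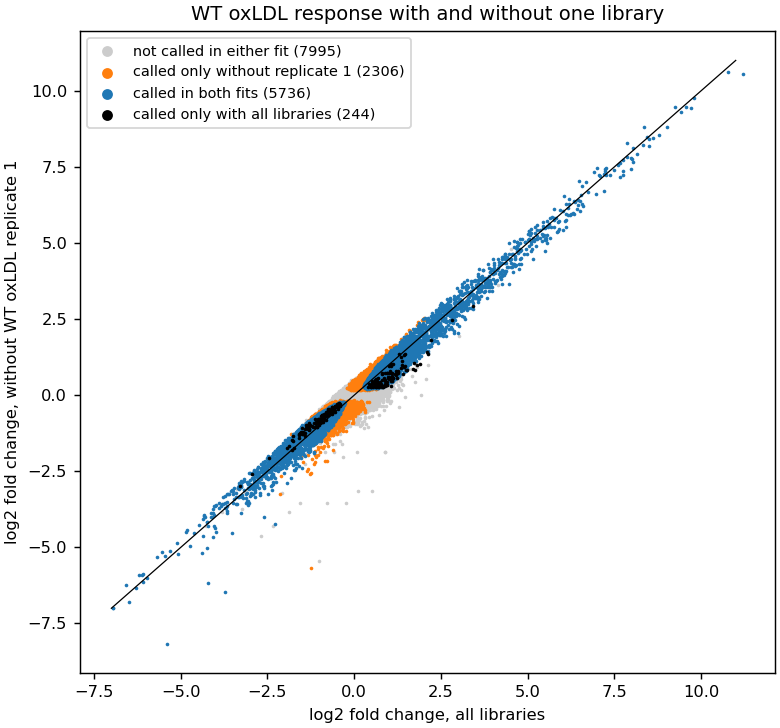
Log2 fold change of each gene with oxLDL in WT, fitted with all libraries (x axis) and without WT oxLDL replicate 1 (y axis), coloured by the fit that called it, for the genes tested with all libraries. Points lie near the line of equality for large changes, and the calls gained without the library have a median log2 fold change of 0.44 for rises and -0.51 for falls in that fit.

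Genes named here lay at 20 CPM or more in the higher group, outside the best-known mediators, and had no predicted or clone-style symbol. Among them the largest rises were in surface receptors of myeloid cells, a few enzymes and secreted proteins. Tarm1 (ENSMUSG00000053338, mm10 chromosome 7, 3486500 to 3502624), an activating receptor of myeloid cells that interacts with T cells, stood at 0.318, 0.4399 and 0.271 CPM in the 3 control libraries and at 394.5, 226 and 251 CPM with oxLDL. That was a log2 fold change of 9.71 ± 0.4 (SE, edgeR adjusted p = 1.61e-08), and the groups lay far apart. Acod1 (ENSMUSG00000022126, mm10 chromosome 14, 103046977 to 103056573), listed as Irg1 in the count table, makes the metabolite itaconate. It went from 9.695, 23.3 and 13.02 to 5341, 5056 and 5700 CPM (8.45 ± 0.45). On the authors' RPKM, which divides by gene length, Acod1 rose from 6.09 ± 2.81 to 1656 ± 169 (SD, n = 3), from rank 6558 to rank 26 of the genes tested. Clec4e (ENSMUSG00000030142, mm10 chromosome 6, 123281789 to 123289870), the lectin receptor Mincle, went from 19.6, 27.6 and 19.1 to 5668, 4763 and 5113 CPM (7.87 ± 0.21) and from RPKM rank 7512 to 52. For both genes the 3 oxLDL libraries lay close together.

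Receptors for formylated peptides, which guide phagocytes to bacteria and damaged mitochondria, rose together. Fpr2 (ENSMUSG00000052270, mm10 chromosome 17, 17887824 to 17893952) went from 2.04, 2.36 and 1.58 to 399, 304 and 368 CPM (7.48 ± 0.26). Fpr1 (ENSMUSG00000045551, mm10 chromosome 17, 17876471 to 17883940) went from 2.35, 2.69 and 2.17 to 282, 228 and 261 CPM (6.74 ± 0.17), and Fpr3 from 0.212, 0.185 and 0.123 to 19.6, 26.9 and 35.6 CPM (7.26 ± 0.31). In each of the 3 genes every oxLDL library was above every control library. Gpr84, a receptor for medium-chain fatty acids, went from 1.72, 1.78 and 1.602 to 598, 240.4 and 264 CPM (7.75 ± 0.44, and 7.22 ± 0.21 without WT oxLDL replicate 1, its highest library). GENCODE M21 has 39.5% of its exonic bases shared with another gene model. Ms4a4c, a membrane protein of the MS4A family, rose by 8.05 ± 0.46.

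Upp1 (ENSMUSG00000020407, mm10 chromosome 11, 9118103 to 9136170), which splits uridine into uracil and a sugar phosphate, was at 0.255, 0.0463 and 0.07395 CPM in control and 51.6, 22.6 and 30.3 CPM with oxLDL (8.04 ± 0.57). Cst7 (ENSMUSG00000068129, mm10 chromosome 2, 150570415 to 150578944), the cysteine protease inhibitor cystatin F, went from 0.255, 0.255 and 0.296 to 49.9, 24.9 and 27.2 CPM (6.97 ± 0.4). Haptoglobin (Hp), which binds free hemoglobin, went from 7.09, 8.75 and 7.32 to 927, 519.6 and 544 CPM (6.42 ± 0.27). For these 3 genes WT oxLDL replicate 1 was the highest library. It was the lowest for Tnfsf15, a cytokine of the TNF family, at 2.85, 30.6 and 36.99 CPM against 0.276, 0.417 and 0.07395 in control (6.49 ± 0.87, and 7.03 ± 0.28 without that library), and for Rasgrp1, an activator of Ras, at 48.2, 109 and 129.9 against 0.891, 1.04 and 0.863 (6.68 ± 0.36). Vnn3, of the pantetheinase family, rose by 6.33 ± 0.23. Mir147 rose by 6.35 ± 0.47, but its bases lie wholly within exons of AA467197, so reads of the host transcript and of the microRNA gene cannot be told apart.

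By the same rule the 15 largest falls included a GTPase regulator, transporters, glycosylation enzymes and receptors. Larger falls of less abundant genes, such as Rasgrp3 and Gpr183, are given further on. Arhgap19 (ENSMUSG00000025154, mm10 chromosome 19, 41766588 to 41802047), a GTPase-activating protein, fell from 140.1, 142 and 146 to 4.598, 8.16 and 6.299 CPM (log2 fold change -4.48 ± 0.21, edgeR adjusted p = 4.26e-08). Slc46a3 (ENSMUSG00000029650, mm10 chromosome 5, 147878437 to 147894815), a lysosomal transporter, fell from 35.1, 32.05 and 35.6 to 2.08, 1.85 and 1.57 CPM (-4.22 ± 0.15). Tmem154 (ENSMUSG00000056498, mm10 chromosome 3, 84666192 to 84704575), a transmembrane protein, fell from 131, 131.5 and 133 to 9.901, 10.9 and 10.2 CPM (-3.67 ± 0.12), and Fam198b from 140.5, 139 and 148 to 7.82, 9.41 and 8.98 CPM (-4.03 ± 0.15). Control libraries of these genes differed by little and all lay above every oxLDL library. Rgs2, which shortens signalling by G proteins, fell by 3.46 ± 0.15 on the log2 scale, from 145, 146 and 149.9 to 12.8, 13.02 and 14.2 CPM.

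Cnr2, the cannabinoid receptor of immune cells, fell from 45.1, 44.9 and 45.4 to 4.87, 5.09 and 3.895 CPM (-3.29 ± 0.14), and the chemokine receptor Cxcr4 from 43.02, 41.3 and 40.9 to 2.42, 5.97 and 4.61 CPM (-3.25 ± 0.26). St6gal1, which caps glycans with sialic acid, fell from 94.3, 91.5 and 91.5 to 5.102, 7.81 and 7.32 CPM (-3.77 ± 0.18), and Gcnt1, which branches O-linked glycans, fell too (-3.28 ± 0.3). Further falls were those of Rnf150, a RING finger protein (-3.89 ± 0.32), Deptor, an inhibitor of the kinase mTOR (-3.49 ± 0.35), Lpin1, a phosphatidate phosphatase (-3.42 ± 0.24), Abcd2, a peroxisomal fatty acid transporter (-3.26 ± 0.24), Efr3b, which anchors a lipid kinase at the plasma membrane (-3.25 ± 0.23), and Kctd12b (-3.36 ± 0.33). In all 30 genes the groups did not overlap, as was so for 51.4% of all genes tested.

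**Figure D2:**
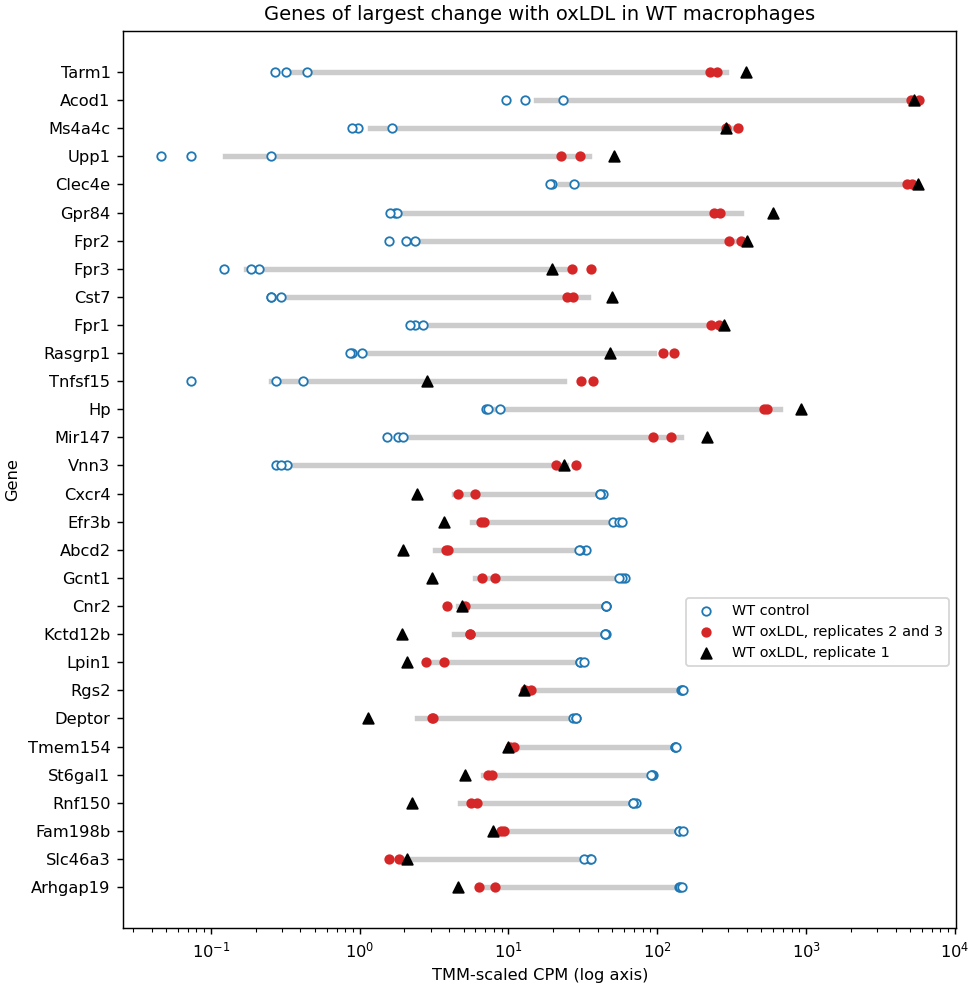
TMM-scaled CPM (log axis) of the 15 genes with the largest rise and the 15 with the largest fall by the naming rule, 1 point per WT library, with WT oxLDL replicate 1 as a black triangle and grey lines joining the group means. Control and oxLDL points are apart in every gene, and for Tnfsf15 replicate 1 sits at 2.85 CPM, below the other oxLDL libraries.

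Promoters of 5 of these and later genes are shown to let the reader see the motif each holds. They were chosen after the values were seen, and only from named genes whose window holds such a motif. They are RefSeq windows on GRCm38.p6 from 250 bases before to 50 after the gene start, with the motif in capitals. In Upp1 and Tmem154 the capitals mark an AP-1 motif (TGANTCA) whose first base lies at -45 from the start, and in Cst7 one at -6. In Tgfbi they mark an interferon response element (ISRE, GAAA, any 2 bases, GAAA) at -194, and in Gch1 an NF-kB motif at -10.
Upp1 (chr11:9117758-9118057, + strand, higher with oxLDL): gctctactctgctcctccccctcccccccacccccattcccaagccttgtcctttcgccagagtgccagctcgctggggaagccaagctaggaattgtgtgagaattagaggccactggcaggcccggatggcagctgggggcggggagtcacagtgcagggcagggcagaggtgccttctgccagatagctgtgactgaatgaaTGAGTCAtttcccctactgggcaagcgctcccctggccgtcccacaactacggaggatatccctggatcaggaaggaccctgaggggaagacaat
Cst7 (chr2:150570165-150570464, + strand, higher): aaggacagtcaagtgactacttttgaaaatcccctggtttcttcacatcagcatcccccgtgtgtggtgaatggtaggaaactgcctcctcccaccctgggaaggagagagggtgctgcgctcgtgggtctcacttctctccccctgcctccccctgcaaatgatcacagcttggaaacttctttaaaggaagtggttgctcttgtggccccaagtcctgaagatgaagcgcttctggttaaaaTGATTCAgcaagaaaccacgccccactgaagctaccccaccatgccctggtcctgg
Tmem154 (chr3:84665942-84666241, + strand, lower): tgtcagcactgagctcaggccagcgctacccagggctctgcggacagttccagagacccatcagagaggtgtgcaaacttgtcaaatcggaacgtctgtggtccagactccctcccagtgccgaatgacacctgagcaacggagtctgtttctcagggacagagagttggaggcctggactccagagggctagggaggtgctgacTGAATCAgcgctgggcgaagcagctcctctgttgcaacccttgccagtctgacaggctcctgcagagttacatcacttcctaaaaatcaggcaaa
Tgfbi (chr13:56609336-56609635, + strand, higher): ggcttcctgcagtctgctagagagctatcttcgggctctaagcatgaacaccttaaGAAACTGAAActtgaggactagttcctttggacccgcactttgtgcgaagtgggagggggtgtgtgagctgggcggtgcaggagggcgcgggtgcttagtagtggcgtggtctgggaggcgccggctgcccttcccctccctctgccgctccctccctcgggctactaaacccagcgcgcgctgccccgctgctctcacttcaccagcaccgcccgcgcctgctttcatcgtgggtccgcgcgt
Gch1 (chr14:47189364-47189663, - strand, higher): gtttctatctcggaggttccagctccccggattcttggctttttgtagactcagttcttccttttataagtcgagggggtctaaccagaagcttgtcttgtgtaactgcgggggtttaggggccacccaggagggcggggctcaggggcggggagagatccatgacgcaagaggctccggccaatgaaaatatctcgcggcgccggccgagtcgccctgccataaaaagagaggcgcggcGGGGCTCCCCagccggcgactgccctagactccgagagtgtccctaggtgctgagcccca

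Promoters were matched by symbol or ID for 10447 of the 16281 genes, and 8 motifs were searched on both strands. The counts that follow are of the 10447 matched promoters, of the 484 of genes called higher with a log2 fold change of 2 or more, and of the 294 of genes called lower by as much. The NF-kB motif was in 536 (5.13%), 58 and 14 (4.76%). The ISRE was in 331 (3.17%), 59 (12.2%) and 9 (3.06%), and the STAT motif (TTCNNNGAA) in 732 (7.01%), 54 (11.2%) and 15 (5.10%). The AP-1 motif was in 553 (5.29%), 62 (12.8%) and 32 (10.9%). The shares of these 4 motifs were higher in the promoters of risen genes than in all matched promoters, and the AP-1 share was higher among fallen genes too. The E2F motif (TTNGCGC) was in 1132, 27 and 23, the E-box (CACGTG) in 1045, 32 and 26, the cyclic AMP element (TGACGTCA) in 334, 6 and 5, and the antioxidant element (TGACNNNGC) in 1555, 63 and 39. Median GC content was 60.7% in all, 54.2% in the higher and 57.5% in the lower promoters, and its part in these shares was not tested. Among the genes named by fold or by list, NF-kB motifs were in 4 of 77 higher and 4 of 76 lower promoters, the ISRE in 2 and 1, and AP-1 motifs in 4 and 5. These counts stand beside 5.13%, 3.17% and 5.29% of all matched promoters. Each of the 3 motifs was thus absent from most promoters of named genes, unlike those printed above.

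By number of reads rather than by fold, the largest gain under the same naming rule was in Fth1, the ferritin heavy chain that stores iron. It went from 9057, 9668 and 9848 to 62030, 26220 and 26320 CPM (2.0 ± 0.31, and 1.48 ± 0.16 without WT oxLDL replicate 1). Replicate 1 was far above replicates 2 and 3 there. Cfb, complement factor B, went from 48.1, 53.4 and 47.1 to 2888, 1789 and 1971 CPM (5.48 ± 0.24), but 79.5% of its exonic bases are shared with the model Gm20547. Tnfrsf1b, a TNF receptor, went from 649.6, 664 and 682 to 5138, 4231 and 4308 CPM (2.78 ± 0.12), with all oxLDL libraries in a narrow range. Cybb, the catalytic subunit of the phagocyte NADPH oxidase, rose less in replicate 1 (1948, 4620 and 4792 CPM, from 1205, 1272 and 1245). B2m and H2-D1, of antigen presentation, rose by 1.2 ± 0.21 and 1.0 ± 0.25 on the log2 scale, though H2-D1 has close copies that can share its reads. The actin gene Actb rose by 0.62 ± 0.12 and Tmsb4x, whose product binds actin monomers, by 1.16 ± 0.25. Replicate 1 was the highest library in these 4 genes.

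Of the 5 largest losses of CPM under this rule, 4 had a log2 fold change smaller than 1 in size. Psap, the precursor of the lysosomal saposins, went from 24040, 25610 and 27070 to 20290, 18730 and 18240 CPM (-0.42 ± 0.11), and lost its call without WT control replicate 3 (-0.36, edgeR adjusted p = 0.0723). Gpnmb, a glycoprotein of lysosomes and the cell surface, went from 23670, 26090 and 27200 to 21540, 19190 and 17490 CPM (-0.4 ± 0.12). It missed the test without WT control replicate 2 (-0.39) or 3 (-0.34) and without WT oxLDL replicate 3 (-0.33, edgeR adjusted p from 0.0699 to 0.102 over these). Spp1, osteopontin, went from 12030, 11980 and 12220 to 5448, 8696 and 9225 CPM (-0.63 ± 0.18, and -0.61 with an adjusted p of 0.0534 in edgeR without WT control replicate 3). Mmp12, macrophage elastase, went from 8577, 9004 and 8959 to 5881, 5629 and 5981 CPM (-0.6 ± 0.1), and Neat1, a nuclear long noncoding RNA, from 1324, 1872 and 1868 to 640.2, 916 and 493 CPM (-1.31 ± 0.33). With the gene length trend removed Gpnmb, Mmp12 and Neat1 were at -0.29, -0.22 and -0.49 and did not pass. In all 5 genes every oxLDL library lay below every control library, while the 2 groups did not overlap in 51.4% of all genes tested. The next 5 losses by amount were called in all 14 alternatives. Atp6v0d2, a subunit of the proton pump that acidifies lysosomes, fell from 1216, 1229 and 1277 to 312, 375.5 and 369 CPM (-1.82 ± 0.12). Lgmn, the lysosomal protease legumain, fell by 0.85 ± 0.12 and Clec7a, the beta-glucan receptor Dectin-1, by 1.31 ± 0.14 on the log2 scale. The fatty acid binding protein gene Fabp5 fell from 2357, 2441 and 2476 to 1808, 1364 and 1289 CPM (-0.71 ± 0.19), and Anxa1, whose product is a ligand of formyl peptide receptors, from 1776, 1810 and 1841 to 1291, 968 and 1032 CPM (-0.72 ± 0.14).

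Receptors of the surface and their G protein partners changed often, in both directions. Of 50 listed G protein-coupled receptors 46 had enough counts, 21 rose, 13 fell and 12 did not pass the test, so that 73.9% were called against 36.7% of all genes, with a median log2 fold change of 0.41 (-0.01 over all genes). The list counts that follow stand against 18.1% higher and 18.6% lower of all genes, or 24.3% and 24.4% without WT oxLDL replicate 1, and counts without that library are given where one moved by over 1.5 times or the median changed sign. Besides the formyl peptide receptors and Gpr84, which rose, Gpr183, the receptor for oxysterols that steers immune cells, fell from 14.1, 13.2 and 14.7 to 0.772, 0.551 and 0.276 CPM (-4.72 ± 0.28), and Lpar5, a lysophosphatidic acid receptor, fell by 2.83 ± 0.28. Of 38 RGS proteins, arrestins and G protein subunits 15 rose and 12 fell (median 0.11). The 3 largest falls among its called members at 5 CPM or more were in RGS genes: Rgs2, Rgs18 (-2.61 ± 0.17) and Rgs1, which went from 301, 313 and 309 to 56.9, 85.05 and 90.7 CPM (-1.99 ± 0.2). Arrdc4, an arrestin-like protein, rose by 1.18 ± 0.11. Of 33 cyclic nucleotide enzymes 5 rose and 11 fell (median -0.29). Pde4b, which degrades cyclic AMP, rose from 5.13, 5.58 and 4.91 to 63.8, 125 and 130.3 CPM (4.35 ± 0.25), and the adenylyl cyclase gene Adcy3 fell by 1.98 ± 0.15.

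Among 48 ion channels 16 rose and 12 fell (median -0.01), 20 and 19 without WT oxLDL replicate 1 (median 0.19), and 14 and 16 with upper-quartile scaling. Orai2, part of the store-operated calcium channel, rose from 11.7, 10.5 and 10.4 to 156, 161 and 165 CPM (3.88 ± 0.12), with little spread in either group. The endolysosomal channel genes Tpcn1 and Mcoln3 fell, Tpcn1 from 112, 119 and 122 to 20.3, 17.8 and 16.99 CPM (-2.68 ± 0.13) and Mcoln3 by 2.02 ± 0.21, and the potassium channel Kcnj2 fell by 2.47 ± 0.33. Of 38 genes of TGF-beta, activin and BMP signalling 12 rose and 7 fell (median -0.02, and 17 and 10 with a median of 0.30 without replicate 1). Tgfbi (ENSMUSG00000035493, mm10 chromosome 13, 56609523 to 56639562), a matrix protein, rose from 90.9, 89.4 and 83.6 to 1026, 1235 and 1143 CPM (3.69 ± 0.14). Inhba, a subunit of activin, rose from 1.23, 0.926 and 0.764 to 3.05, 30.6 and 31.4 CPM, little in replicate 1 (4.47 ± 0.72), and the receptor gene Tgfbr2 fell by 1.43 ± 0.23. Of 46 Notch and Wnt genes 9 rose and 17 fell (median -0.45): the Notch ligand Jag1 rose from 15.3, 16.4 and 14.8 to 30.04, 111 and 112 CPM (2.44 ± 0.39), Dtx2, a ubiquitin ligase of the Deltex family, rose by 3.52 ± 0.23, and Maml3, a coactivator of Notch, fell by 2.32 ± 0.21. Of 44 semaphorin, plexin, ephrin and netrin genes 6 rose and 11 fell (median -0.40). The neuropilins went opposite ways, Nrp2 from 321, 321 and 328 to 726.5, 1515 and 1657 CPM (2.01 ± 0.25) and Nrp1 from 491, 500.1 and 519 to 122, 163 and 167 CPM (-1.74 ± 0.14).

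Inside the cell, 2 activators of Ras family GTPases moved apart. Rasgrp1 rose, as given above, while Rasgrp3 (ENSMUSG00000071042, mm10 chromosome 17, 75435896 to 75529054) fell from 17.4, 15.5 and 17.8 to 0.134, 0.231 and 0.359 CPM (-6.09 ± 0.24, edgeR adjusted p = 1.31e-08). They belong to a list of 51 phosphoinositide 3-kinase and phospholipase C genes, of which 10 rose and 16 fell (median -0.17), and 19 and 18 without WT oxLDL replicate 1. Of 53 MAP kinase genes 18 rose and 12 fell (median 0.11), among them Mapkapk2, a kinase downstream of p38, which rose from 178, 183.5 and 186 to 1233, 957 and 1042 CPM (2.56 ± 0.12), and Map3k9, which fell by 1.74 ± 0.16. Of 43 TRAF, Pellino, CBL and MARCH ligase genes 16 rose and 11 fell (median 0.16). Traf1, an adaptor of TNF receptors, rose from 5.11, 5.696 and 5.55 to 330.3, 174 and 192 CPM (5.41 ± 0.27), Rnf213, a large ubiquitin ligase, from 169.6, 167 and 147 to 522, 1559 and 1912 CPM (3.05 ± 0.38), and Rnf144b fell by 2.83 ± 0.25.

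**Figure D3:**
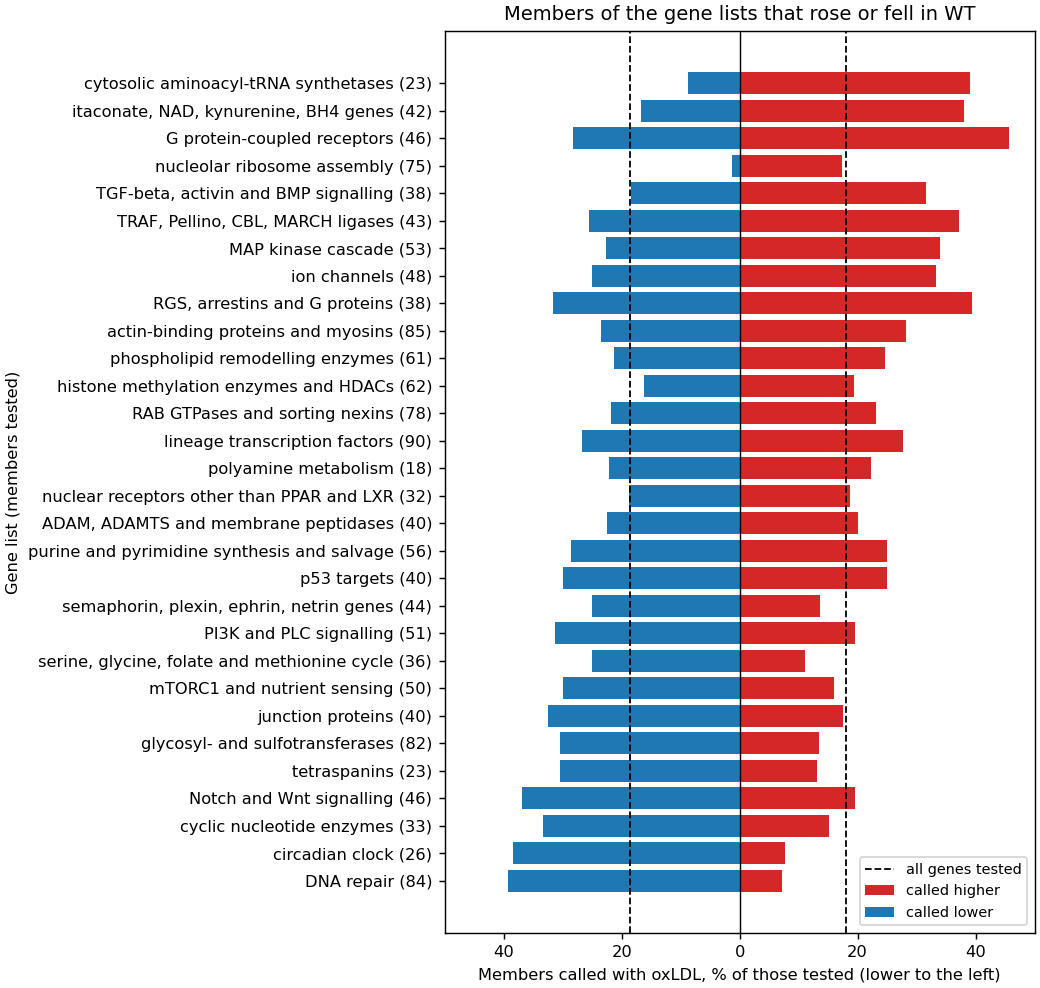
Share of the tested members of the gene lists called higher (right, red) or lower (left, blue) with oxLDL in WT, with the number tested in parentheses. Dashed lines mark the shares over all genes tested, 18.1% and 18.6%, and the list of DNA repair genes has the longest bar to the left, 33 of 84.

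Genes of shape and movement were split. Of 85 actin-binding proteins and myosins 24 rose and 20 fell (median -0.02), 32 and 24 without WT oxLDL replicate 1 (median 0.07), and 19 and 22 with upper-quartile scaling. Marcksl1, a membrane-bound actin regulator, rose from 21.2, 18.7 and 14.96 to 1149, 786.5 and 886 CPM (5.68 ± 0.28) and Vasp, which elongates actin filaments, from 94.3, 96.4 and 96.8 to 797, 559.7 and 600.1 CPM (2.77 ± 0.14), while the motor gene Myo5a fell by 1.5 ± 0.32. Of 40 cadherin, claudin, nectin and junction genes 7 rose and 13 fell (median -0.46), and 13 and 14 without replicate 1 (median -0.24), with Jup, plakoglobin, down from 38.5, 38.6 and 36.01 to 8.22, 6.597 and 6.77 CPM (-2.39 ± 0.13). Of 23 tetraspanins 3 rose, Cd82 most (1.38 ± 0.16), and 7 fell (median -0.10). Among 40 membrane peptidases 8 rose and 9 fell (median -0.04), and 13 and 10 without replicate 1 (median 0.01). Rhbdf2, which brings the TNF-releasing protease to the surface, rose from 38.9, 41.9 and 42.5 to 179.8, 173 and 167.5 CPM (2.08 ± 0.14), and Plau, the urokinase plasminogen activator, fell from 497, 521 and 533 to 109, 115 and 123.5 CPM (-2.16 ± 0.12). Of 78 RAB GTPases and sorting nexins 18 rose and 17 fell (median 0.02), 27 and 21 without replicate 1 (median -0.03), and 15 and 21 with upper-quartile scaling, with Rab32, which works at lysosome-related organelles, up from 58.9, 58.7 and 54.5 to 476, 386 and 454 CPM (2.93 ± 0.13) and the sorting nexin Snx5 down by 1.59 ± 0.11.

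Regulators of transcription were also divided. Of 90 lineage transcription factors 25 rose and 24 fell (median -0.02), 38 and 29 without WT oxLDL replicate 1 (median 0.18), and 21 and 31 with upper-quartile scaling. Foxp4 rose from 16.6, 17.2 and 17.4 to 327.5, 177 and 178 CPM (3.74 ± 0.23) and Maff, a small MAF protein, by 3.1 ± 0.21. Mef2c fell by 1.9 ± 0.33, and Mxd4 and Mxi1, antagonists of MYC, fell by 1.65 ± 0.15 and 1.56 ± 0.13. Of 26 circadian clock genes 2 rose and 10 fell (median -0.32), and 7 rose and 10 fell without WT oxLDL replicate 1 (median -0.14). Npas2, a partner of BMAL1, fell from 4.84, 4.96 and 5.87 to 0.503, 0.942 and 0.746 CPM (-2.8 ± 0.23), Dbp, an output gene of the clock, from 5.24, 6.92 and 6.73 to 2.48, 1.28 and 1.33 CPM (-1.91 ± 0.24), and Nfil3, a repressor that opposes Dbp, rose by 1.13 ± 0.24. Control and oxLDL cells were labelled with the same time, and the hour of collection is not stated. Of 32 other nuclear receptors 6 rose and 6 fell (median -0.14), a called share of 37.5% against 36.7% of all genes, and 12 and 8 without replicate 1 (median 0.09), with Esrra up by 1.17 ± 0.18. Of 62 histone methylation enzymes and deacetylases 12 rose and 10 fell (median -0.06), so that 35.5% were called, near the share of all genes. Without replicate 1 the counts were 25 and 12 (median 0.13), against 48.7% of all genes called in that fit, and with upper-quartile scaling 9 and 12. Kmt5a, which methylates histone H4, rose from 106, 105 and 104 to 309, 305 and 314 CPM (1.56 ± 0.09), and Smyd3 fell by 2.23 ± 0.12.

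Several metabolic enzymes rose strongly. Of 42 genes of itaconate, NAD, kynurenine and tetrahydrobiopterin metabolism 16 rose and 7 fell (median 0.23, and 17 and 13 with a median of -0.04 without WT oxLDL replicate 1). Cd38, the main NAD-consuming ectoenzyme, rose from 21.1, 21.3 and 19.2 to 425, 893 and 975 CPM (5.22 ± 0.28), and Gch1 (ENSMUSG00000037580, mm10 chromosome 14, 47153895 to 47189413), the first enzyme of tetrahydrobiopterin synthesis, from 20.2, 20.2 and 20.1 to 226, 145 and 161 CPM (3.14 ± 0.2). Parp1, an NAD-using DNA damage enzyme, fell by 0.83 ± 0.13. Of 56 purine and pyrimidine genes 14 rose and 16 fell (median -0.09, and 17 and 13 with the gene length trend removed). Besides Upp1, the nucleotide kinase gene Cmpk2 rose from 15.6, 23.2 and 16.1 to 472, 635 and 752 CPM (5.08 ± 0.29) and Pnp, purine nucleoside phosphorylase, by 3.7 ± 0.23, though all exonic bases of Pnp are shared with other models, Pnp2 among them. The salvage and synthesis genes Adk and Adssl1 fell by 1.06 ± 0.11 and 2.09 ± 0.16. Of 23 cytosolic aminoacyl-tRNA synthetase genes 9 rose and 2 fell (median 0.35), with Wars, for tryptophan, up from 58.3, 56.8 and 60.7 to 197, 145.5 and 156 CPM (1.5 ± 0.19). Of 36 genes of the serine, glycine, folate and methionine cycle 4 rose and 9 fell (median -0.21), a called share of 36.1% beside 36.7% of all genes, and 4 and 14 without replicate 1, with Mthfd2, a mitochondrial folate enzyme, up by 1.32 ± 0.12.

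Of 18 polyamine genes 4 rose and 4 fell (median 0.01), and 4 and 6 without WT oxLDL replicate 1 (median -0.08), with Sat1, which acetylates polyamines, down by 1.14 ± 0.14. Of 61 phospholipid remodelling genes 15 rose and 13 fell (median 0.12), 22 and 21 without replicate 1 (median 0.10), and 11 and 17 with upper-quartile scaling. Lpcat2, which makes platelet-activating factor, rose from 20.9, 19.7 and 18.7 to 216.5, 171 and 195 CPM (3.3 ± 0.14), while Lpin1 fell and Pnpla7, a lysophospholipase, fell by 1.87 ± 0.15. Of 82 glycosyltransferase and sulfotransferase genes 11 rose and 25 fell (median -0.18), a called share of 43.9%, and 19 and 29 without replicate 1 (median -0.12). The sialyltransferase genes St3gal3 (2.03 ± 0.21) and St3gal1, from 99.6, 100.1 and 102 to 244, 299 and 294 CPM (1.47 ± 0.13), rose, while St6gal1 fell. Galnt9, which starts O-linked glycans, fell from 16.9, 18.1 and 19.3 to 1.31, 0.942 and 0.414 CPM (-4.35 ± 0.3).

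Genes of genome upkeep fell more often than they rose. Of 84 DNA repair genes 6 rose and 33 fell, against 18.1% and 18.6% of all genes, with a median log2 fold change of -0.52. Without WT oxLDL replicate 1 the counts were 8 and 43 (24.3% and 24.4% of all genes) with a median of -0.33. Brca1, of homologous recombination, fell from 9.63, 9.86 and 10.3 to 1.24, 3.89 and 3.48 CPM (-1.77 ± 0.33), Rad54l, of the same pathway, by 1.57 ± 0.14, and Ercc6, of transcription-coupled repair, by 1.65 ± 0.31. Atrip is listed as rising from 32.6, 35.2 and 34.7 to 623, 224.5 and 251.5 CPM (3.42 ± 0.36, and 2.82 ± 0.15 without replicate 1), but its exons overlap those of the DNA exonuclease gene Trex1, which rose from 25.0 ± 1.37 to 355 ± 221 CPM (SD, n = 3), so the value of Atrip is uncertain. Of 40 p53 targets 10 rose and 12 fell (median -0.19): the death receptor gene Fas rose from 3.92, 3.22 and 3.38 to 46.5, 35.6 and 42.7 CPM (3.57 ± 0.16) and the cell cycle inhibitor Cdkn1a by 1.72 ± 0.22, while Sesn1 fell from 104, 98.8 and 103 to 14.8, 21.5 and 20.7 CPM (-2.42 ± 0.16). Of 50 genes of mTORC1 and nutrient sensing 8 rose and 15 fell (median -0.02), 13 and 16 without replicate 1 (median -0.12), and 14 and 10 with the gene length trend removed, while 3 rose without any 1 WT control library, with Deptor, Sesn1 and Rragd (-2.12 ± 0.2) among those that fell. Of 75 nucleolar ribosome assembly genes 13 rose and 1 fell (median 0.13), so that 18.7% were called against 36.7% of all genes, 24 rose and 4 fell without replicate 1, and 6 rose and 3 fell with upper-quartile scaling. Leaving out WT control replicate 1, 2 or 3 gave 6, 6 and 7 rises. Bop1, of the large ribosomal subunit, rose by 1.46 ± 0.24 and Rrs1 by 0.97 ± 0.17.

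Gene biotypes moved unequally. Of 303 long intergenic noncoding RNAs 39 rose and 96 fell (median -0.50), and 38 and 111 without WT oxLDL replicate 1 (median -0.54). Of 13459 protein-coding genes 2642 rose and 2720 fell (median -0.03). Of 1177 processed pseudogenes 125 rose and 30 fell with a median of 0.41, which was 0.09 without replicate 1. These genes are short, with a median of 579 nt, and can share reads with their parent genes.

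WT oxLDL replicate 1 stood apart from the other WT libraries by gene length. Genes were split by annotated length into 5 groups of equal number. In the shortest group (38 to 1388 nt) its median level was 0.73 above the WT control mean on the log2 scale, and in the longest (5970 to 116825 nt) it was -0.98. In replicates 2 and 3 the medians lay between -0.06 and 0.02 in all 5 groups. The fitted median followed, from 0.31 in the shortest to -0.27 in the longest group, and from 0.00 to -0.05 without replicate 1. In CD36 KO the fitted median response also ran downward with length, from 0.10 in the shortest to -0.21 in the longest group. The library also had the lowest TMM factor of the 12, 0.729, and Fth1 took 4.52% of its counts, against 2.26% and 2.21% in replicates 2 and 3. The 6 genes that stood highest in it relative to replicates 2 and 3, among those at 50 CPM or more with oxLDL, were Gm20746, Atp5e, Atp5d, Il3ra, Ndufa2 and Rpl39. Atp5e, of the ATP synthase, was at 223, 69.4 and 69.8 CPM against 68.2, 73.3 and 72.7 in control, and Ndufa2, of respiratory complex I, at 141, 45.04 and 46.6 against 43.7, 43.6 and 46.2. Of the 6 that stood lowest, the copper pump gene Atp7a was at 1.91, 83.2 and 82.6 against 62.4, 57.4 and 59.7 and the nuclear pore gene Ranbp2 at 17.3, 181.5 and 211 against 155, 150.3 and 154. None of these 4 passed the test with all libraries. Slfn5 missed the test in the full data (1.48 ± 0.59, edgeR adjusted p = 0.0707) and passed it without replicate 1 (2.01 ± 0.14). RNA quality values are not in the sources used here, and the origin of this pattern was not tested.

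**Figure D4:**
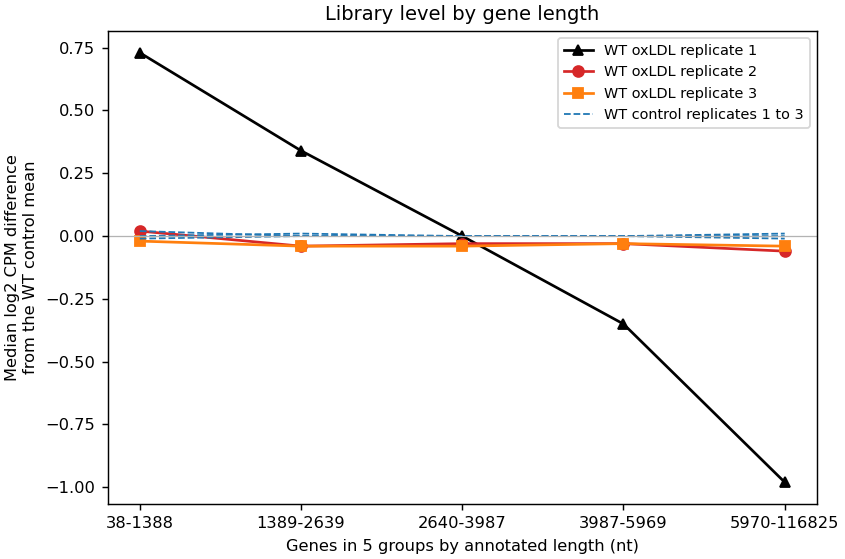
Median log2 CPM difference of each WT library from the WT control mean (y axis) in 5 groups of genes by annotated length (x axis, nt). WT oxLDL replicate 1 runs from 0.73 to -0.98 and the other libraries stay near 0.

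Whether the WT response differed from that of CD36 KO cells was tested with the interaction, which passed for 109 of 16281 genes (0.669%). Of these, 100 were called in WT, 70 were called the same way in both genotypes, 18 rose and 7 fell in WT without a call in CD36 KO, and 5 were called opposite ways. The count was 1158 without WT oxLDL replicate 1, and 42, 41 and 40 without WT control replicate 1, 2 and 3. CD36 KO oxLDL replicate 3 correlated at r = 0.9885 and 0.9892 with replicates 1 and 2 of its group, which correlated at 0.994 with each other. No fit of the interaction left out a CD36 KO library. The 30 genes named by fold, which leave out well-known mediators, were all called the same way in CD36 KO, where 27.4% of all genes were called. Of the 194 genes named by fold or list, 13 passed the interaction, all with the larger change in WT. Since the genes were named by their change in WT, a larger change there is in part set by the choice. Tgfbi rose by 3.69 ± 0.14 in WT and 2.1 ± 0.13 in CD36 KO, and Plau had log2 fold changes of -2.16 ± 0.12 and -0.63 ± 0.11. Loss of CD36 and any other way in which the mice or preparations of the 2 genotypes differed cannot be told apart.

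**Figure D5:**
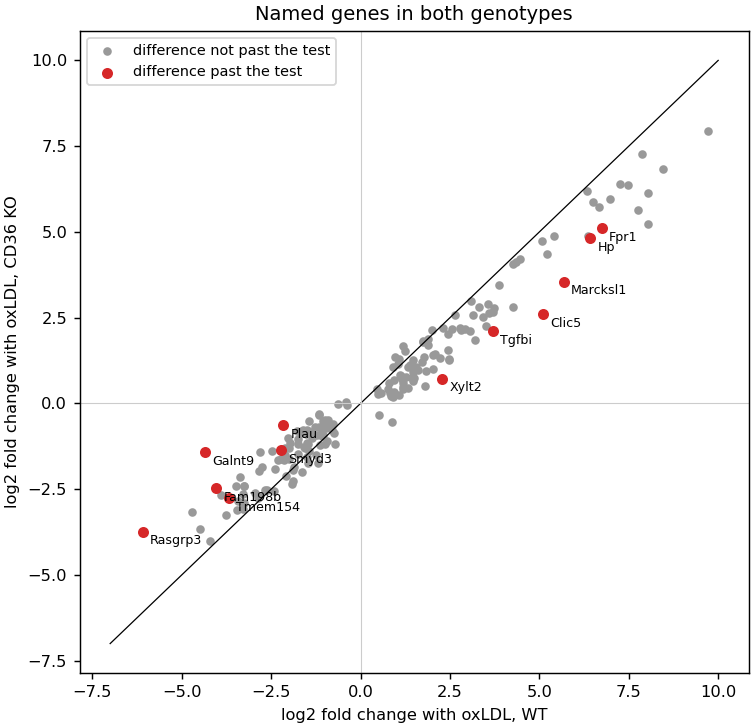
Log2 fold change with oxLDL of 193 of the genes named by fold or list, in WT (x axis) and CD36 KO (y axis), with the line of equality. The 12 of them past the interaction test are red and labelled, and each lies closer to 0 in CD36 KO than in WT.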

How the data were processed

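RNA from 12 libraries was analysed, with groups and replicate numbers from their titles. In the deposited table counts per gene are whole numbers without normalization, and beside them RPKM values that the authors computed per gene length and library size. In their deposited table for oxLDL against control in WT, the authors give log2 fold changes and p-values adjusted as false discovery rates (FDR), used here only for a check. The submitters' processing notes name the mm10 build and FastQC. Not given in the sources used here are the aligner, counting program, annotation and strand setting, so overlapping and antisense genes and close copies can share reads. Of 43346 gene IDs 42462 were found in GENCODE M21, whose gene spans are printed, since the table's own start and end equalled that span for 13799 IDs and a single annotated exon for 24084.

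Low counts were filtered by filterByExpr of edgeR 4.0.16 in R 4.3.3 (minimum count 10, minimum total 15). Libraries were scaled by TMM. One robust quasi-likelihood model with a mean for each of the 4 groups was fitted to all 12 libraries. A gene was called at a Benjamini-Hochberg adjusted p under 0.05 over all genes tested, and rose and fell are used for called genes. Errors of log2 fold changes (± in parentheses) are approximate SE, the absolute value divided by the root of the F statistic. CPM given for genes are TMM-scaled, while those of cell markers and their sums are scaled to the library's sum alone. On simulated counts for 15916 genes, 15720 were left unchanged, and no gene length trend was put into any library. Of genes changed by a log2 fold of -2 and 2, 89.4% and 96.0% were called, and of those changed by -1 and 1, 42.9% and 48.0%. Of the unchanged genes 0.0445% were called. In the real data 36.7% of genes were called, so the simulated shares need not hold there. Each library counted as 1 replicate, since within-group pairs differed by more than sampling noise (chi-square per degree of freedom of at least 3). Alternatives were DESeq2 1.42.0, upper-quartile factors, no low-count filter, only the WT libraries, a replicate block, removal of the gene length trend, voom with library weights (limma 3.58.1) and leaving out each WT library. A fit of WT libraries without WT oxLDL replicate 1 was added after the data were seen.

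The members, gene lists and tests were chosen with earlier results of these data known. Genes named by fold, amount or list were called the same way with and without WT oxLDL replicate 1. Those by fold or amount also lay outside a list of well-known mediators, had no predicted symbol and reached 20 CPM. They are the 15 largest rises and 15 largest falls, and the 10 largest gains and losses in CPM. Without these exclusions, up to 3 rises and 3 falls were taken per list at 5 CPM or more. The 6 genes highest and lowest in WT oxLDL replicate 1, at 50 CPM or more with oxLDL, needed no call. Not all list members are in the text, and 1 further gene and 1 gene list are not reported here. Of 194 genes named by fold or list, 193 were in the authors' deposited table and 182 had an FDR under 0.05 there in the same direction. Of the genes named by amount, Psap, Gpnmb, Spp1 and Mmp12 missed that cutoff in the authors' table, with FDR of 0.206, 0.239, 0.0716 and 0.0519. The rest of those named by amount passed it in the same direction.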

Additional observations from a re-analysis of the deposited data

Results flagged for a closer look

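The oxLDL response differed between WT and CD36 KO for 13 of the 194 genes named by fold or list, by the interaction term of the edgeR quasi-likelihood model. All 13 also passed it without WT oxLDL replicate 1, where 1158 genes passed against 109 in the full data. Whether the 13 passed without a WT control library, where 40 to 42 genes did, is not reported here. The values that follow, for 12 of the 13, are the log2 response of CD36 KO minus that of WT. Among genes that rose in WT they were -1.63 for Fpr1, -1.62 for Hp, -1.59 for Tgfbi, -2.13 for Marcksl1, -2.47 for the chloride channel family gene Clic5 and -1.57 for the xylosyltransferase gene Xylt2. Among genes that fell in WT they were 1.52 for Plau, 1.55 for Fam198b, 2.93 for Galnt9, 2.35 for Rasgrp3, 0.92 for Tmem154 and 0.87 for Smyd3. Adjusted p-values of these edgeR interaction tests ran from 0.00212 for Plau to 0.0424 for Hp. These genes were named by their change in WT, and what sets the difference was not tested.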

How the results depend on the processing

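Of 212 genes named by fold, amount or list, 0 changed sign in any of 14 alternatives and 35 lost their call in at least 1 of them, of which Psap, Gpnmb, Spp1, Mmp12 and Neat1 are described above. Leaving out WT control replicate 1, 2 or 3 moved 8, 10 and 9 of 60 list counts by over 1.5 times, all downward. The number still called the same way was 183 with only the 6 WT libraries, 209 with a replicate block and 197 to 212 when 1 WT library was left out. With only the 6 WT libraries 3687 genes were called, 1825 higher and 1862 lower, with 485 list members, against 752 in the fit reported. Voom with library weights, which weighted WT oxLDL replicate 1 at 0.0273, called 10244, 4905 higher and 5339 lower, with 1165 list members and 2533 genes for the difference between genotypes. Only WT libraries without WT oxLDL replicate 1, an alternative chosen after seeing the data, gave 9883, 4818 higher and 5065 lower, with 1172 list members. The difference between genotypes was called for 535 genes by DESeq2, 228 with the gene length trend removed, and 40 to 1158 when 1 WT library was left out. With a replicate block 5426 genes were called in WT and 44 for the difference between genotypes. Deviations from the group mean correlated at r = -0.0785, 0.0163 and -0.109 for numbers 1, 2 and 3 of WT control and WT oxLDL, and not every library correlated best with its own. WT oxLDL replicate 1 stood apart in its group and weighs on all these deviations. They therefore cannot show whether samples of the same number share an animal or preparation, which the labels do not state. The cause of these shifts, fewer samples included, was not tested. In the simulation, where few genes changed and no length trend was present, 42.9% and 48.0% of log2 changes of -1 and 1 were called. These shares need not hold for the real data, and a missing call does not show that a gene did not change.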
